A study of Mus musculus with 8 samples.

Results

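Microglia are the resident macrophages of the brain, and 39 genes that mark them or the other brain macrophages were compared between BTBR/R and B6 mice. The genes were taken by name, as every probe whose gene name on the array was one of the 39, and they held 70 of the 56605 probes and 39 of the 37074 gene names measured. They were read in 4 subsets. The homeostatic subset had 15 genes of resting microglia, the shared myeloid subset had 13 genes common to microglia, macrophages and other white blood cells, the activated subset had 8 genes and the macrophage subset had 3.

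RNA came from the whole cerebral cortex and striatum of 4 male B6 mice (C57BL/6J) and 4 male BTBR/R mice (BTBRTF/ArtRbrc), an inbred strain studied as a model of autism. Each mouse had an array of its own, with no pooling and no treatment, and age was 4 months in 7 mice and 6 months in BTBR/R replicate 1. The arrays were Agilent 1-colour arrays on 1 slide, on which the B6 mice filled one column and the BTBR/R mice the other, and the effects of strain and of slide column therefore cannot be told apart. Values are log2 signals from which the 75th percentile of the array was subtracted, called scaled signal here, and every difference is BTBR/R minus B6. A gene passed the test at an adjusted p below 0.05 by limma, and a probe was called where the change was also at least 2-fold. Detected means well above background by the scanner software.

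In the healthy brain, microglia watch neurons through surface receptors. Cx3cr1 receives fractalkine (Cx3cl1) from neurons, P2ry12 senses purine nucleotides from injured cells, and Csf1r receives Csf1 and Il34, which keep microglia alive. Microglia that take up debris use the lipid receptor Trem2, which signals through the adaptor Tyrobp, and they raise lysosomal genes such as Cd68 and Ctsd. The factors Spi1, Irf8 and Sall1 set microglial identity, and Mrc1 and Cd163 mark the macrophages along vessels and meninges rather than microglia. In whole tissue, fewer cells of a type and less RNA per cell cannot be told apart.

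A gene was read by its brightest probe, that with the highest mean signal over the 8 arrays. By that probe, 31 of the 39 genes were above background on every array, and Cx3cr1, Csf1r, Tmem119, P2ry12 and Aif1 were among them. Another 5 genes were detected in all 4 B6 mice but not in all BTBR/R mice, and 3 genes were not detected in all B6 mice. Dim probes read unequally in the strains. The lowest detected signal was 14.5 to 17.8 units on the B6 arrays and 36.1 to 47.1 units on the BTBR/R arrays, and 64.5% to 66.8% against 53.5% to 57.2% of the probes were detected.

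Over the 31 genes, 11 were lower and 3 were higher in BTBR/R past the test, and 17 did not pass it. Among the brightest probes of all genes detected on all 8 arrays, 14.4% were lower and 13.9% were higher. The median difference of the 31 genes was -0.12, beside 0.00 over all 18857 such genes. The strains did not overlap in 15 of the 31 genes, beside 6587 of those 18857. The 3 higher genes were P2ry12, P2ry6 and Slco2b1. That count depended on the scaling and on single mice, as 1 gene was higher with median scaling (beside 11 lower), and 1 without B6 replicate 2, 3 or 4 or BTBR/R replicate 2 or 3, beside 9 to 13 lower. Counting all 39 genes, detected or not, 15 were lower and 3 higher, beside 11.4% and 30% of all 37074 genes. The subsets differed in how their genes were spread, as the plot of all 39 differences shows. The shared myeloid genes lay on the lower side, with a median of -0.32, and the homeostatic genes lay on both sides of 0, with a median of 0.05 that was 0.09 without B6 replicate 1, 0.02 without B6 replicate 2, 0.03 without B6 replicate 3 and 0.02 with median scaling. The difference between subsets was not tested. A list of further homeostatic genes, not all of them particular to resting microglia, had a median of -0.35.

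**Figure D1:**
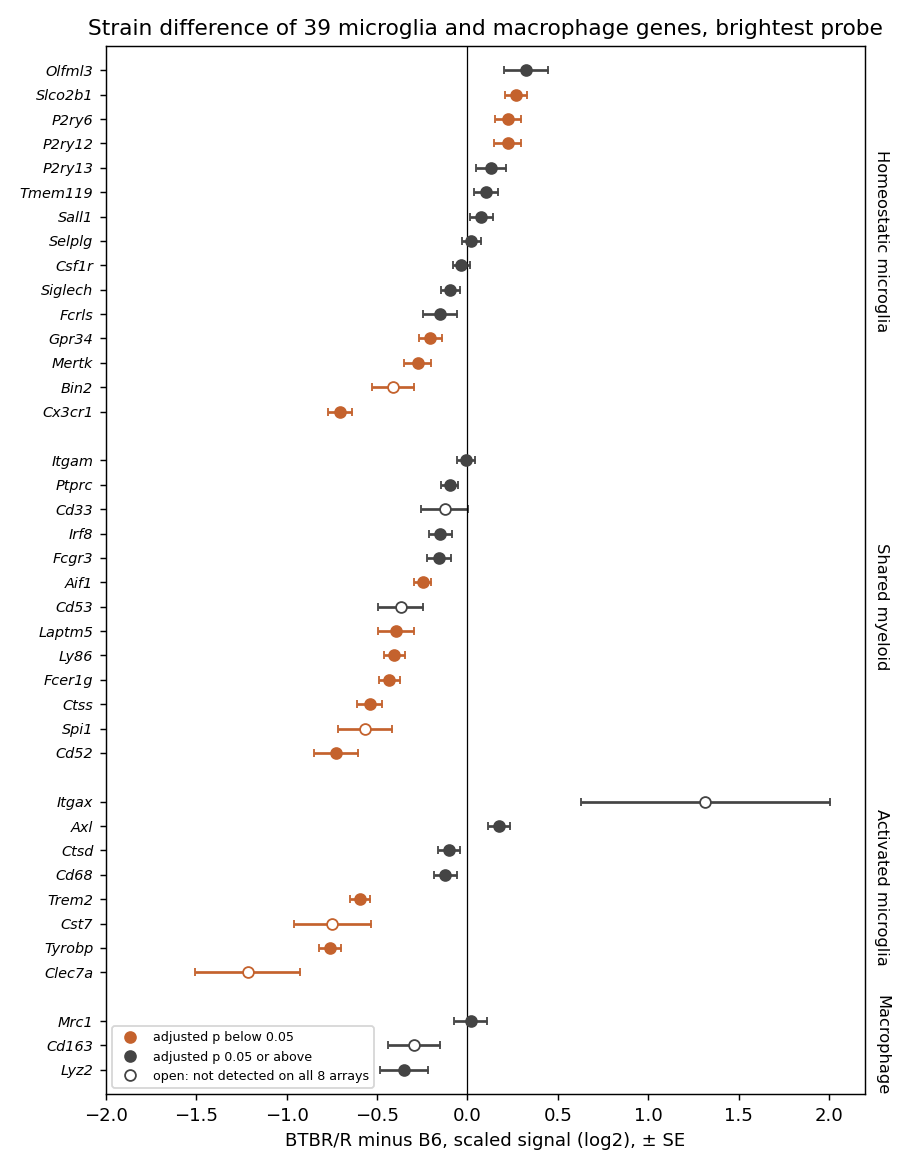
Strain difference in scaled signal (log2, BTBR/R minus B6, n = 4 mice per strain) of the brightest probe of each of the 39 genes, with bars of 1 SE, grouped by subset. Tyrobp (-0.76), Cd52 (-0.73) and Cx3cr1 (-0.71) had the lowest differences among genes detected on all 8 arrays (filled points). Cx3cr1 is drawn by its brighter probe, and its other probe was 1.71. Open points are genes that were not detected on every array.

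The results turn on a few probes, whose sequences (30 of the 60 bases, 5′ to 3′, from the array annotation) are shown so that their targets can be found. Positions are mm9 and cover the whole probe. The Cx3cr1 probes are shown because they gave opposite results and lie 1207 bases apart on the minus strand of chromosome 9. Capitals in them and in the Trem2 probe mark the polyadenylation signals AATAAA and ATTAAA, read on the probe strand only, which are held by 9.77% and 3.86% of all probes and by 6 and 4 of the 70 probes here.
Cx3cr1, brighter probe, chr9:119957811-119957870, bases 31 to 60: attctgtcAATAAAcattggtttccttcca
Cx3cr1, other probe, chr9:119959018-119959077, bases 1 to 30: caagaatgtcttcatgcattcactgactcc
Trem2, chr17:48491537-48491596, plus strand, bases 31 to 60: actttggacATTAAAcattctccacacacc
Tyrobp, chr7:31200651-31202378, plus strand, bases 1 to 30: ggacccggaaacaacacattgctgagactg
The Tyrobp position is longer than its 60 bases, so the probe spans at least one intron. Exon and UTR positions of these probes were not analysed here.

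The genes Tyrobp and Trem2 form one signalling pair and both were lower in BTBR/R. Tyrobp, the adaptor with the signalling motif, read 2.24, 2.33, 2.33 and 2.22 in the B6 mice and 1.58, 1.52, 1.58 and 1.40 in the BTBR/R mice. The strains did not overlap, and the difference was -0.76 ± 0.06 (SE, n = 4 per strain), 1.69-fold, with an adjusted p of 2.76e-05 by limma. Trem2, the receptor for lipids and cell debris, read 2.24, 2.30, 2.27 and 2.30 in B6 and 1.66, 1.80, 1.68 and 1.59 in BTBR/R. Every BTBR/R mouse was below every B6 mouse here too, by -0.59 ± 0.05 or 1.51-fold on average (adjusted p = 7.16e-05, limma).

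The other 3 activated genes detected on all 8 arrays were Cd68, Ctsd and Axl. Cd68, a lysosomal membrane protein of phagocytes, read 0.85, 1.06, 1.01 and 0.92 in B6 and 0.89, 0.75, 0.85 and 0.87 in BTBR/R. The strains overlapped and the difference of -0.12 did not pass (adjusted p = 0.16). Ctsd, a lysosomal protease, differed by -0.10 (adjusted p = 0.23), and Axl, a receptor that binds dying cells through Gas6, by 0.17 (adjusted p = 0.057), which passed without B6 replicate 1 (0.21) and with normexp correction (0.18). The median over the 5 genes of the subset that were detected on all 8 arrays was -0.12, the same as over the 31 genes. Past the test 2 were lower, beside 14.4% of all such genes. The mean scaled signal of the 5 genes was 2.61 to 2.69 over the B6 mice and 2.31 to 2.42 over the BTBR/R mice. On the higher side limma passed 0 genes and 1, Axl, at an unadjusted p below 0.05, and the methods' t-test and limma's trend and robust fit passed 1.

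The remaining activated genes, Cst7, Itgax and Clec7a, which rise in microglia around plaques, sat at the detection limit. Clec7a, the receptor for fungal glucans, read -4.32, -4.13, -4.03 and -4.44 in B6, detected in all 4, and -4.60, -5.49, -5.70 and -6.00 in BTBR/R, detected in none. Although limma called it (-1.22, adjusted p = 0.013), the B6 mean was not above what the BTBR/R arrays could detect, and no fold is given for that reason. With normexp correction the difference was -0.26 and did not pass. Cst7, an inhibitor of cysteine proteases, was detected in 2 B6 mice and no BTBR/R mouse (-0.75, adjusted p = 0.028, with no fold given), and Itgax, an integrin of dendritic cells, in 2 BTBR/R mice and no B6 mouse.

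Of the 13 shared myeloid genes, 10 were detected on every array, and 6 of these 10 were lower past the test, beside 14.4% of all such genes. The differences of all 10 were negative, though that of Itgam was -0.01 and turned sign with quantile normalization and without B6 replicate 2 or 3 or BTBR/R replicate 4. None was higher by limma, at an unadjusted p below 0.05 or by the methods' t-test. The mean scaled signal of the 10 genes was 1.68 to 1.75 over the B6 mice and 1.34 to 1.47 over the BTBR/R mice, so no BTBR/R mouse reached the lowest B6 mouse.

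Cd52, a short surface peptide of white blood cells, had the lowest difference of the brightest probes detected on all 8 arrays in this subset. It read -0.30, 0.12, 0.01 and -0.24 in B6 and -0.77, -0.85, -0.67 and -1.04 in BTBR/R. B6 replicates 1 and 4 were below the other B6 mice, yet the strains did not overlap, and the difference was -0.73 ± 0.12 (adjusted p = 0.0022, limma).
Ctss, the lysosomal protease cathepsin S that trims the invariant chain, read 4.09, 3.86, 3.97 and 3.97 in B6 against 3.49, 3.51, 3.41 and 3.32 in BTBR/R. These groups were apart, with a difference of -0.54 ± 0.07, 1.46-fold (adjusted p = 0.00051).
Fcer1g, the common gamma chain of Fc receptors and, like Tyrobp, an adaptor with an activating motif, read 1.664, 1.734, 1.662 and 1.598 in B6 and 1.272, 1.308, 1.234 and 1.118 in BTBR/R. All BTBR/R mice were lower, by -0.43 ± 0.06 (adjusted p = 0.00072). The Fc receptor Fcgr3 itself differed by -0.16 and did not pass (adjusted p = 0.093), but passed without B6 replicate 4 (-0.21) and with normexp correction (-0.19).

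Ly86, the partner of a Toll-like receptor homologue, read 1.86, 1.75, 1.77 and 1.85 in B6 and 1.45, 1.46, 1.43 and 1.27 in BTBR/R. The difference was -0.40 ± 0.06 (adjusted p = 0.0012), and BTBR/R replicate 4 was the lowest mouse. Laptm5, a lysosomal protein of blood cells, read 0.27, 0.21, 0.12 and 0.16 in B6 and -0.16, -0.48, -0.03 and -0.15 in BTBR/R. The strains were again apart, and the BTBR/R mice were more spread (-0.39 ± 0.10, adjusted p = 0.017, and 0.053 with a floor at the highest detection limit). Aif1, the calcium-binding protein stained as Iba1, read 1.486, 1.456, 1.496 and 1.461 in B6 and 1.203, 1.1997, 1.319 and 1.189 in BTBR/R. This was a small difference of -0.25 ± 0.05, or 1.19-fold, that exceeded the spread of either strain (adjusted p = 0.0044). Irf8 differed by -0.15 (adjusted p = 0.11), and passed without BTBR/R replicate 3 (-0.20). Spi1, which encodes PU.1, was detected in no mouse, and Cd53 and Cd33 were detected in all 4 B6 mice and 1 BTBR/R mouse.

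**Figure D2:**
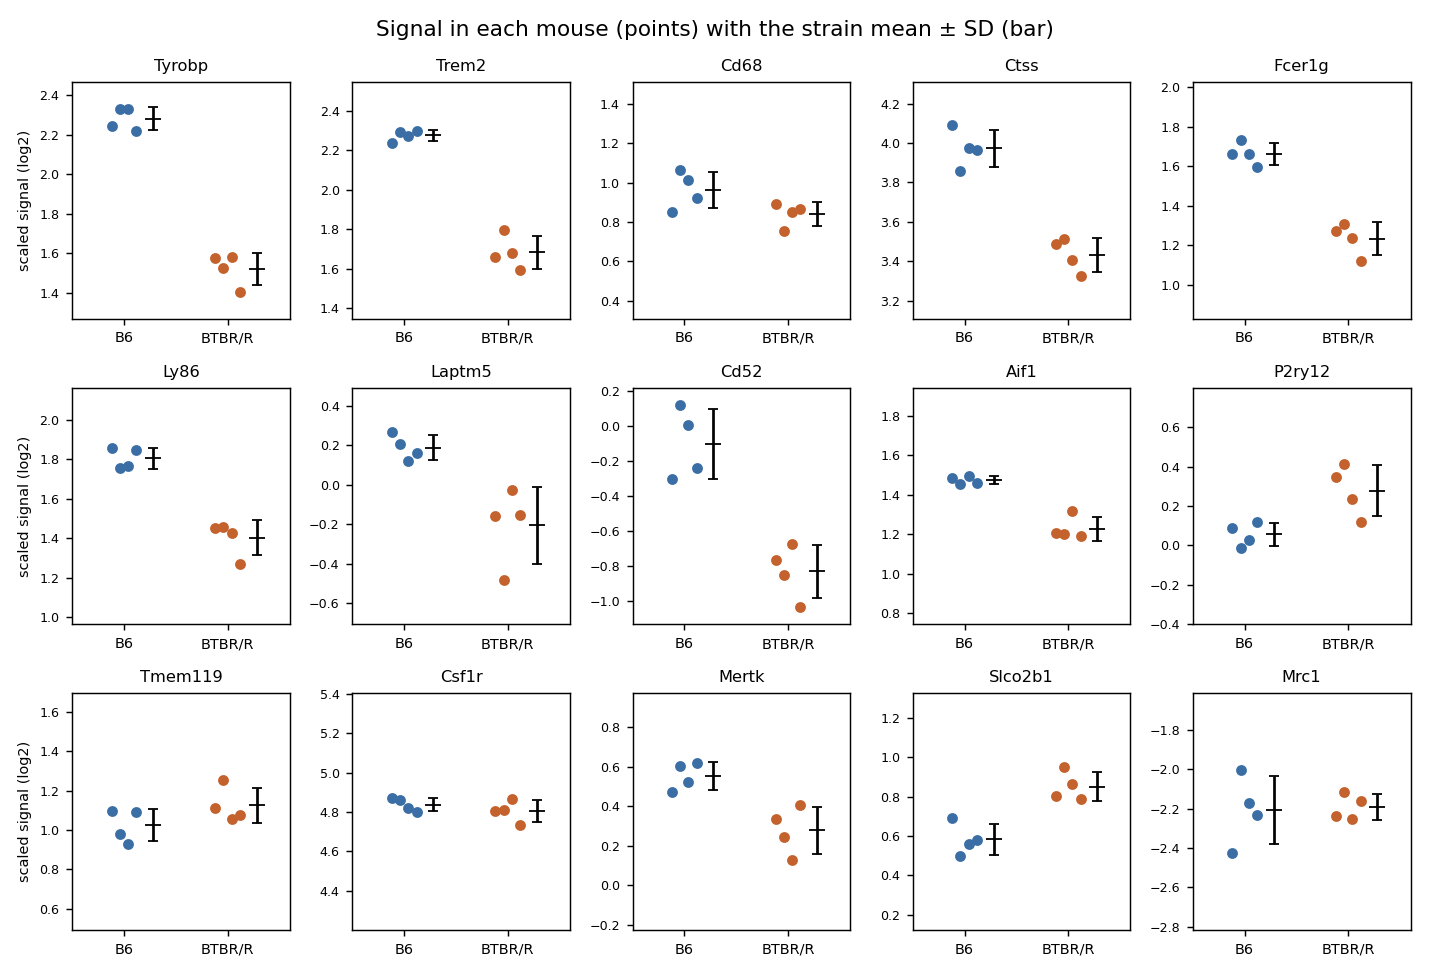
Scaled signal (log2) in each of the 4 B6 and 4 BTBR/R mice for 15 genes by their brightest probe, with the strain mean and SD at the right of each group. The vertical ranges differ between panels, and no point of Tyrobp, Trem2, Ctss, Fcer1g, Ly86, Laptm5, Cd52 or Aif1 in BTBR/R reaches the lowest B6 point, while the points of Cd68, Tmem119, Csf1r and Mrc1 overlap. The strains did not overlap in 6587 of the 18857 genes detected on all 8 arrays.

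Homeostatic genes past the test lay on both sides. Detection on every array held for 14 of the 15, and of these 3 were lower and 3 higher, beside 14.4% and 13.9% of all genes. Mean scaled signal over the 14 genes was 1.24 to 1.29 in B6 and 1.17 to 1.29 in BTBR/R, so the strains overlapped.

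The subset holds receptors for signals from neurons and for survival factors. P2ry12 read 0.09, -0.01, 0.03 and 0.12 in B6 and 0.35, 0.41, 0.24 and 0.12 in BTBR/R. BTBR/R replicate 4 lay among the B6 mice, and the difference of 0.22 ± 0.07 passed narrowly (adjusted p = 0.048). It did not pass when any 1 mouse but BTBR/R replicate 4 was left out (0.18 to 0.24, adjusted p up to 0.11). Nor did it pass with median scaling (0.19), the 75th percentile of detected probes (0.21), the floor at the highest detection limit or the methods' t-test. These 4 gave adjusted p from 0.052 to 0.0998. P2ry6, a receptor for uridine nucleotides, was higher by 0.23 (adjusted p = 0.040) with 0.17 by its other probe (adjusted p = 0.032), and P2ry13 differed by 0.13 without passing (adjusted p = 0.26). The brightest P2ry6 probe did not pass without B6 replicate 2, 3 or 4 or BTBR/R replicate 2, 3 or 4 (0.17 to 0.25). It also did not pass with normexp, quantile or median scaling (0.18 to 0.22) or the floor (0.23). The other P2ry6 probe did not pass without B6 replicate 2 or 4 or BTBR/R replicate 1, 2 or 3 (0.15 to 0.18). It also did not pass in 3 of the 11 alternatives that kept all mice (adjusted p up to 0.083), median scaling (0.14) among them.
Csf1r read 4.87, 4.86, 4.82 and 4.80 in B6 and 4.81, 4.81, 4.87 and 4.73 in BTBR/R. The strains overlapped at a difference of -0.03 ± 0.05 (adjusted p = 0.61), and the second Csf1r probe gave -0.01. Tmem119, a membrane protein that marks microglia apart from blood-derived macrophages, read 1.09, 0.98, 0.93 and 1.09 in B6 and 1.11, 1.26, 1.06 and 1.08 in BTBR/R. The difference of 0.10 ± 0.07 did not pass (adjusted p = 0.27).

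Slco2b1, an organic anion transporter, read 0.69, 0.50, 0.56 and 0.58 in B6 and 0.81, 0.95, 0.86 and 0.79 in BTBR/R. All BTBR/R mice were higher, by 0.27 ± 0.06 (adjusted p = 0.011). Mertk, a receptor for the engulfment of dying cells, read 0.47, 0.60, 0.52 and 0.62 in B6 and 0.33, 0.24, 0.13 and 0.41 in BTBR/R. It was lower by -0.28 ± 0.07 in mice that did not overlap (adjusted p = 0.020), and did not pass without B6 replicate 2 (-0.26) or B6 replicate 4 (-0.25). Gpr34, a receptor for lysophosphatidylserine, was lower by -0.21 and by -0.37 with its 2 probes (adjusted p = 0.036 and 0.011). The first missed the threshold without B6 replicate 2, 3 or 4 or BTBR/R replicate 1 or 4 (-0.20 to -0.17) and with the floor (adjusted p = 0.064), and the second fell to -0.03 with normexp correction. Bin2, a membrane-bending protein, was lower by -0.41 (adjusted p = 0.027) with 3 of 4 BTBR/R mice above background, and it did not pass without B6 replicate 1, 3 or 4 or BTBR/R replicate 2 (-0.40 to -0.39) or with normexp correction (-0.11). The identity factor Sall1 (0.08), the selectin ligand Selplg (0.02) and the Fc receptor-like Fcrls (-0.15) did not pass.

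Cx3cr1 had 2 probes detected on all 8 arrays that moved in opposite directions. The brighter probe read 3.38, 3.37, 3.47 and 3.31 in B6 and 2.61, 2.74, 2.79 and 2.56 in BTBR/R. The other probe, toward the 5′ side of the gene, read 0.53, 0.52, 0.50 and 0.50 in B6 and 2.201, 2.209, 2.271 and 2.201 in BTBR/R. Within each probe the strains were far apart and the mice of a strain close together. The differences were -0.71 ± 0.07 and 1.71 ± 0.04 (adjusted p = 8.71e-05 and 7.59e-07, limma). The level of one probe cannot be set against that of the other, but their changes can be, and these differed by 2.41 on the log2 scale. Hence the direction of Cx3cr1 depended on the probe, and the subset median used the brighter one. With the other probe in its place, the homeostatic median was 0.09 with 2 genes lower and 4 higher, and the counts over the 31 genes were 10 lower and 4 higher.

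Other genes were checked for the same. Of 9 genes with at least 2 probes detected on all 8 arrays, Cx3cr1 was the one with probes past the test in both directions, and 5 had probes that agreed in sign. Olfml3, a secreted matrix protein, was 0.32 by its brightest probe, which did not pass (adjusted p = 0.073, and 0.041 with limma's trend and robust fit), and its other 2 probes were lower by -0.44 and -0.50 (adjusted p = 0.022 and 0.0019). The first of these did not pass without B6 replicate 4 (-0.44) or BTBR/R replicate 3 (-0.38). It also did not pass in 1 of the 11 alternatives that kept all mice (adjusted p = 0.071). Siglech, a sialic acid receptor, was -0.09 by its brightest probe, 0.38 by the next (adjusted p = 0.018) and -0.03 by the third. The second of these did not pass in 1 of the 11 alternatives that kept all mice (adjusted p = 0.055). The Irf8 probes stood at -0.15 and 0.06.

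Ptprc, the phosphatase CD45 of all white blood cells, had 7 probes that differed in what they measure. The brightest is annotated to no RefSeq mRNA, and read 2.0014, 2.0626, 2.1162 and 2.0003 in B6 and 1.9617, 1.9068, 1.9522 and 1.9652 in BTBR/R. All 4 BTBR/R mice were lower, but the -0.10 did not pass (adjusted p = 0.13). It passed with normexp correction (-0.15, adjusted p = 0.033) and by the methods' t-test (adjusted p = 0.0498). A dimmer probe for the RefSeq mRNA read -2.02, -1.92, -2.10 and -1.98 in B6 and -3.35, -3.42, -3.48 and -3.57 in BTBR/R. The strains were widely apart, at -1.45 ± 0.07 (adjusted p = 1.25e-05), and 1 of 4 BTBR/R mice was above background, so the lower level is near the detection limit. With normexp correction the difference was -0.87.

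The Ptprc probes below are those just described. The Siglech and Itgam probes are shown because part of their sequence is not particular to the gene. Capitals mark runs of at least 20 bases that also stand in probes of other genes, 4 other genes for Siglech and 29 for Itgam. No other probe of the 39 genes held such a run.
Ptprc, RefSeq mRNA probe, chr1:139960089-139960148, minus strand, bases 1 to 30: ttatgggaaatgtaaaattgactatggcca
Ptprc, brightest probe, chr1:140020575-140020634, minus strand, bases 1 to 30: ggtgccctcttctggcgatcaagttacatg
Siglech, brightest probe, chr7:63034088-63034147, plus strand, bases 31 to 60: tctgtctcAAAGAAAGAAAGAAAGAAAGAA
Itgam, brightest probe, chr7:135261755-135261814, plus strand, bases 1 to 30: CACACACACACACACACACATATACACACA
By the CA repeat probe, Itgam, the integrin chain CD11b, differed by -0.01. Its other probe differed by -0.33 and did not pass (adjusted p = 0.12), with all 4 B6 mice and no BTBR/R mouse above background.

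**Figure D3:**
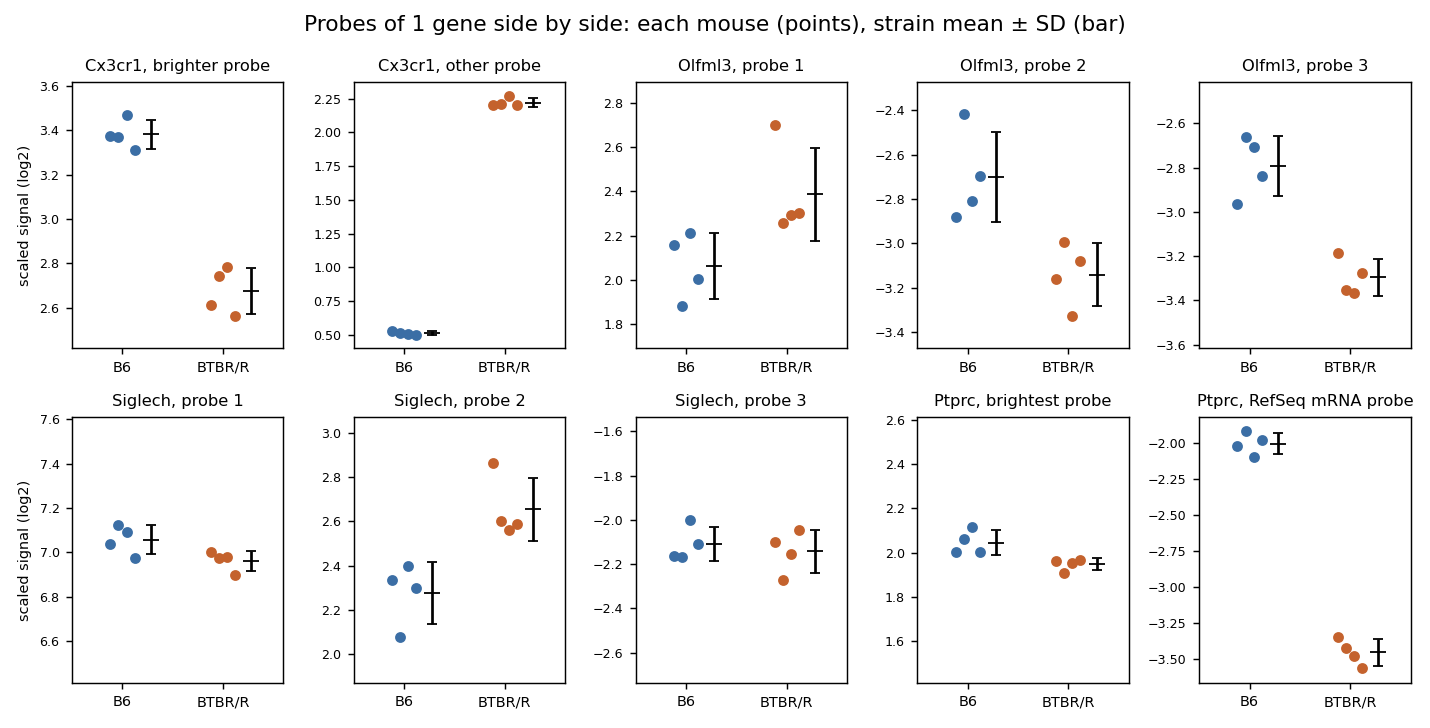
Scaled signal (log2) in each B6 and BTBR/R mouse for the probes of Cx3cr1, Olfml3 and Siglech and 2 of the 7 Ptprc probes, with the strain mean and SD at the right of each group. Probes of a gene are ordered by brightness, each panel has its own range, and the Cx3cr1 probes change by -0.71 and 1.71.

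By limma, 0 of the 2 macrophage genes detected on all 8 arrays passed the test, with 1, Lyz2, at an unadjusted p below 0.05, 0 by the methods' t-test and 1 by limma's trend and robust fit. Mrc1, the mannose receptor CD206, read -2.42, -2.01, -2.17 and -2.23 in B6 and -2.24, -2.12, -2.25 and -2.16 in BTBR/R. These overlapped, with a difference of 0.02 ± 0.09 (adjusted p = 0.90), whose sign turned with quantile normalization, median scaling or normexp correction. Cd163, the scavenger receptor for haemoglobin, read -3.67, -3.36, -3.36 and -3.58 in B6 and -3.58, -4.17, -3.74 and -3.67 in BTBR/R. It was detected in 1 of 4 BTBR/R mice, and -0.30 did not pass (adjusted p = 0.15), while -0.20 with normexp correction did (adjusted p = 0.031). Without 1 mouse the Cd163 difference was -0.37 to -0.17 and did not pass. Lysozyme (Lyz2) differed by -0.35 without passing (adjusted p = 0.075), and passed without B6 replicate 4 (-0.43) or BTBR/R replicate 3 (-0.42).

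Calls of 2-fold changes among the 70 probes need to be read with detection. There were 5 probes called higher, beside 20.2% of all probes, and 2 called lower, beside 2.27%. With quantile normalization the split was 1 higher and 3 lower, and with normexp correction 1 and 0. Of the 5 higher, 4 (probes of Laptm5, Cd52, Cd163 and Itgax) were detected on no array, and the other was the Cx3cr1 probe. The Laptm5, Cd52 and Cd163 probes at 1.42, 1.44 and 1.47 stood for genes whose brightest probes were lower or did not pass. Among probes detected on all 8 arrays, 1.04% were called higher and 1.16% lower.

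Partners of these receptors and further microglial genes were read from lists of their own. Of 9 ligands, all detected on all 8 arrays, 1 was lower and 1 higher past the test, beside 14.4% and 13.9% of all such genes. The higher one was Cd47, the signal that keeps phagocytes from eating a cell, at 0.54 (adjusted p = 4.1e-05) by a brightest probe annotated to no RefSeq mRNA. Its other probe, which is annotated to one and was also detected on all 8 arrays, was lower by -0.21 (adjusted p = 0.0078). Cd47 is named after its values were seen. Fractalkine (Cx3cl1), the ligand of Cx3cr1, read 5.97, 6.16, 6.07 and 6.04 in B6 and 5.75, 5.91, 5.89 and 5.92 in BTBR/R. It was lower by -0.19 (adjusted p = 0.045), and its dimmer probe was higher by 0.38 (adjusted p = 0.037). The brighter probe still passed without B6 replicate 1. It did not pass without any other 1 mouse (-0.21 to -0.15) or with quantile normalization, median scaling or the floor. The Csf1r ligands Csf1 (0.11, adjusted p = 0.21) and Il34 (0.15, adjusted p = 0.15) did not pass, like their receptor.

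Receptors and signalling proteins downstream were 13 of 14 detected, with 6 lower and 0 higher, beside 14.4% and 13.9% of all genes. None was higher at an unadjusted p below 0.05 either. The lower genes included Csf3r (-0.17, adjusted p = 0.022, limma), named after its values were seen. Its probe shares a run of at least 20 bases with 2 other genes.

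Further homeostatic genes, not all of which are particular to resting microglia, were 10 of 12 detected. Of these 6 were lower and 1 higher, beside 14.4% and 13.9% of all genes, with a median of -0.35. The list includes Cd86, Mef2c and Sparc. C1qb, a chain of the complement trigger C1q made by microglia, read 1.77, 1.86, 1.81 and 1.69 in B6 and 0.34, 0.45, 0.36 and 0.29 in BTBR/R. The gap was -1.42 ± 0.06 (adjusted p = 8.42e-06). C1qa, another chain of the same complex, was lower by -0.35 (adjusted p = 0.0011), from 1.88 to 1.53.

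Further activation genes, many of which other cells also make, were 13 of 16 detected, with 2 lower and 1 higher, beside 14.4% and 13.9% of all genes, and a median of -0.02. The higher one was Lpl, lipoprotein lipase, at 0.07, 0.39, 0.13 and 0.25 in B6 and 1.40, 1.30, 1.47 and 1.46 in BTBR/R. The difference was 1.197 ± 0.08 (adjusted p = 2.76e-05), and 5 of its 6 probes, all detected on all 8 arrays, were higher past the test, from 0.47 to 2.47. The remaining one differed by -0.05. Further border macrophage genes were 7 of 10 detected, with 3 lower, beside 14.4% of all genes, and a median of -0.36.

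Genes of other cell types were read in the same way. Neuronal genes had a median of -0.01, with 0 of 8 past the test by limma, 1 at an unadjusted p below 0.05, 0 by the methods' t-test and 2 by limma's trend and robust fit. The brightest Snap25 probe among them shares a run of at least 20 bases with 28 other genes. Choroid plexus genes had a median of 0.04, with 0 of 5 past the test by limma, at an unadjusted p below 0.05 or by the methods' t-test. Astrocyte genes had -0.28 (4 of 7 lower), endothelial genes -0.28 (3 of 6 lower) and oligodendrocyte genes -0.21 (2 of 7 lower), beside 14.4% lower over all genes. The last 3 medians lay between those of the homeostatic and the shared myeloid genes.

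Genes of blood cells were read as possible sources of myeloid RNA. All 4 detected red cell genes of 5 on the array were lower (0 of them by the methods' t-test), beside 14.4% of all such genes, with a median of -1.22. Their summed linear scaled signal was 143.8 to 467.9 in B6 and 97.6 to 120.3 in BTBR/R. Their mean scaled signal was 3.91, 5.43, 4.69 and 3.61 in B6, highest in replicates 2 and 3, and 3.325, 3.103, 3.204 and 3.037 in BTBR/R. Of 8 monocyte and neutrophil genes, 3 were detected on all arrays, with sums of 14.1 to 16.8 in B6 and 12.4 to 13.6 in BTBR/R. Of the 3, 1 was lower past the test, beside 14.4% of all such genes. That one, named after its values were seen, was Ly6c2 (-0.27, adjusted p = 0.024), whose signal made up most of the sum and whose probe shares a 20-base run with another gene. Ly6c1, read here as an endothelial gene, also had a brightest probe with a run shared with 1 other gene. It was lower by -0.29 (adjusted p = 0.020, limma). The sum is therefore not particular to monocytes and neutrophils. The monocyte receptor Ccr2 was not among those 3. Of 8 lymphocyte genes, 2 were detected, with sums of 2.28 to 2.37 and 2.35 to 3.03. The part of blood cells in the shared myeloid values was not tested.

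**Figure D4:**
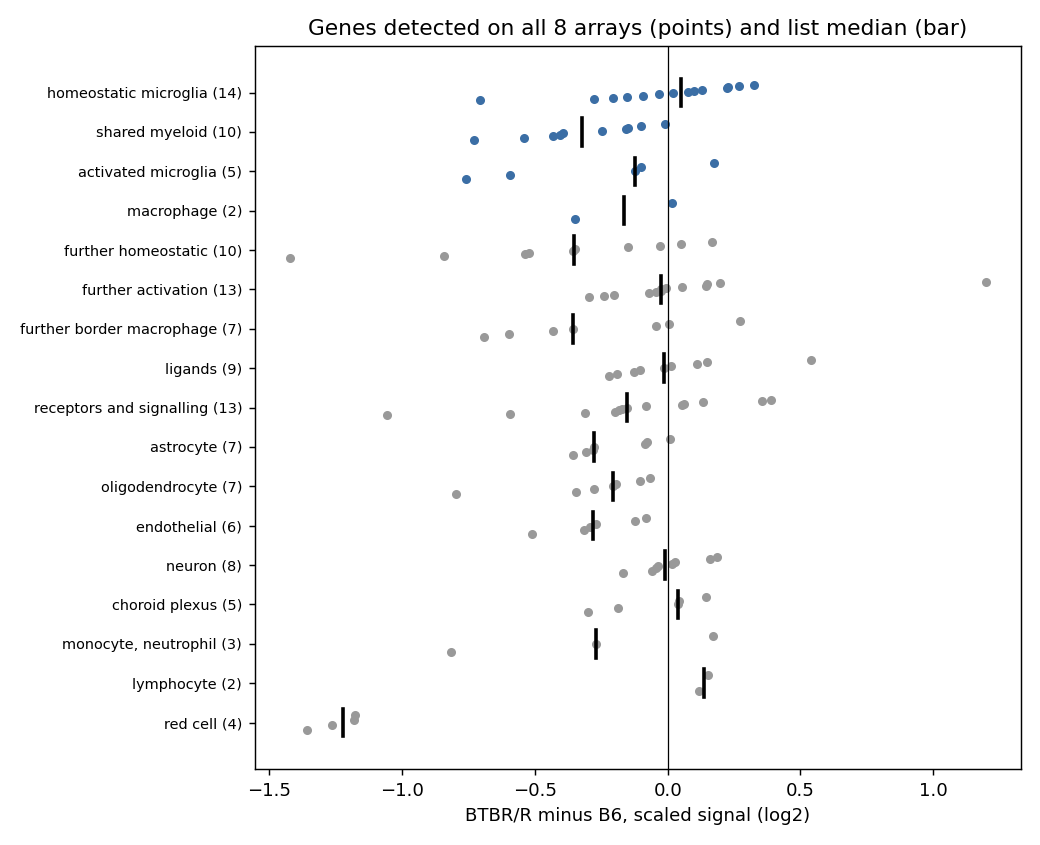
Strain difference (log2, BTBR/R minus B6) of each gene detected on all 8 arrays (points, number of genes in brackets) and the median of each list (bars), for the 4 subsets (blue) and for related and other cell type lists (grey). The shared myeloid median is -0.32, the homeostatic median 0.05, the neuron median -0.01 and the red cell median -1.22.

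Promoters of 30 of the 39 genes were found in RefSeq (GRCm38), as 250 bases before to 50 bases after the start. They were searched on both strands for GAGGAAGT, a purine-rich sequence of the kind bound by PU.1, because PU.1 drives many myeloid genes. It stood in 3 of the 30 genes (10%) and in 3.69% of all 27025 genes in the table. The 3 windows, with the match or its reverse complement in capitals, were
Ctss, chr3:95526773-95526802: aatgaaagttcACTTCCTCattgtggatgc
Cd53, chr3:106790125-106790154: cactcagtctcACTTCCTCactcttctcgc
Slco2b1, chr7:99711316-99711345: agtccatgaggGAGGAAGTgactcatcttc
Of these genes Ctss was lower, Slco2b1 higher and Cd53 near the detection limit.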

How the data were processed

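Total RNA of 4 B6 and 4 BTBR/R mice was labelled with Cy3, and the authors deposited the spot intensity values of Agilent Feature Extraction 10.7.3.1, background subtracted, and log2 values scaled to the 75th percentile. Control spots and outlier spots were left out, replicate spots were averaged, and log2 processed intensity minus the 75th percentile of each array was used. Strains were compared with limma 3.58.1 (R 4.3.3, lmFit and eBayes), and p-values were adjusted by Benjamini and Hochberg over the 56605 probes. The fit was tested on simulated data. Tables and plots used Python 3.11.15, pandas 2.3.3, numpy 2.4.6 and matplotlib 3.10.9.

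The members and lists were chosen with earlier results of these data known. Values in every mouse are given for genes with a called probe detected in every mouse of a strain, for genes whose brightest probe passed at 1.2-fold or more with detection on all 8 arrays, and for 10 fixed markers. Olfml3, Siglech, Itgam and Gpr34 were described further after their values were seen. Alternatives were normexp (offset 50), quantile, median and detected-probe scaling, the authors' log2 values, filters on dim probes, a floor, limma with trend and robust, a t-test as in the methods, a block, and each mouse left out. The number of arrays limits the precision. Of the 39 names, 39 matched a symbol in the GRCm38 RefSeq table, though promoter sequence was available for 30 of them. Probe positions are mm9, from the array annotation. A few genes of the related lists are not reported here by name.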

Additional observations from a re-analysis of the deposited data

Results flagged for a closer look

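In 29 probes of named genes, the highest or lowest of the 4 mice of a strain stood apart from the other 3 in 4 of 58 groups, and chance gives about 1 in 20. The 4 were in BTBR/R. Aif1 read 1.32 in replicate 3 against 1.189 to 1.203 in the others. Ly86 read 1.27 in replicate 4 against 1.43 to 1.46. The Cx3cr1 probe that was higher in BTBR/R read 2.27 in replicate 3 against 2.201 to 2.209. Cx3cl1 read 5.75 in replicate 1, the mouse of 6 months, against 5.89 to 5.92. Without those mice the strain differences of Aif1, Ly86 and both Cx3cr1 probes stayed past the test, and that of Cx3cl1 did not (-0.15).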

How the results depend on the processing

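Member probes called higher numbered 1 with normexp, with quantile normalization, with the floor and in fits limited to probes detected on all 8 arrays or in 1 strain, and 10 with no fold threshold. Probes called lower numbered 0 with normexp and with detection on all 8 arrays, 1 with the floor and 20 with no fold threshold. Without 1 mouse these counts were 5 to 7 and 2 to 2. Members past the test on the higher side numbered 1 with median scaling and with the floor, 5 with limma's trend and robust options, and 1 to 3 without 1 mouse. On the lower side the count was 9 to 13 under every alternative run. The homeostatic median was 0.0033 with each detected probe counted once. The shared myeloid median was -0.28 with normexp, -0.20 with each detected probe counted once, and -0.34 to -0.27 without 1 mouse, the last without BTBR/R replicate 2. In an alternative chosen after the data were seen, which took the brightest probe for a RefSeq mRNA with no shared run, the shared myeloid median was -0.40 and the macrophage value 0.017, from 1 gene. Differences that turned sign were small in the reported fit too. Mrc1 was -0.029 with normexp, -0.0094 with quantile normalization and -0.011 with median scaling, and without 1 mouse ranged from -0.055 to 0.084, negative without B6 replicate 1 or BTBR/R replicate 2. Selplg was -0.032 with normexp, -0.0066 with median scaling and, without 1 mouse, -0.0077 (without B6 replicate 2) to 0.054. Itgam was 0.023 with quantile normalization and -0.042 to 0.012 without 1 mouse, positive without B6 replicate 2 or 3 or BTBR/R replicate 4. The dimmest Siglech probe was -0.064 to 0.011 without 1 mouse, positive without B6 replicate 3 or BTBR/R replicate 2. Cx3cr1 (both probes), Tyrobp, Trem2, Cd52, Ctss, Fcer1g, Ly86, Aif1, C1qa, C1qb and Lpl kept direction and passed the test under every alternative run. Replicate numbers did not pair the mice, as same-numbered mice correlated by -0.07 to 0.16. With a replicate block, 6 probes were called higher and 2 lower, and 10 members passed on the lower and 0 on the higher side. With the block, P2ry12 (adjusted p = 0.13), Gpr34 (0.074), Slco2b1 (0.065), Laptm5 (0.056), Bin2 (0.057), P2ry6 and Cx3cl1 no longer passed the test. Dim probes are limited by the higher detection limit of the BTBR/R arrays.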
